A study of Caenorhabditis elegans with 2 samples.

Results

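The genes eef-1A.2 and eef-1A.1 encode translation elongation factor 1A of Caenorhabditis elegans, and their loci are described here in ChIP-seq data for the nuclear hormone receptor NHR-84. These 2 genes, of 19973 annotated protein-coding genes, were picked on the same data because a peak had been seen at each promoter. The presence of those peaks, and their signals and ranks, are therefore a description and carry no test. Called regions were assigned to a gene when the summit lay inside it or within 5 kb of either end. In the list made from both replicates together, 12 of 30000 regions met this rule, 7 at eef-1A.2 and 5 at eef-1A.1. The lists of the single replicates gave 11 regions in replicate 1 and 13 in replicate 2, of 30000 each. A shorter list holds the regions kept by the irreproducible discovery rate (IDR), a measure of how well ranks repeat between replicates. Of its 106 peaks, 2 met the rule, 1 at each gene. Their ranks in it were those of the pooled list. Of the 106 peaks, 94 were found within 100 bp in both replicates. Being in this list therefore does not by itself mean a high rank in each replicate.

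Elongation factor 1A is a GTPase that carries aminoacyl-tRNAs to the ribosome, and it is among the most abundant proteins of animal cells. The upstream sequence of eef-1A.1, under its older name eft-3, is widely used in C. elegans to drive transgenes in most tissues. NHR-84 belongs to the nuclear hormone receptors, transcription factors with a zinc-finger DNA-binding domain, a family that is much expanded in nematodes.

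There was 1 group with 2 biological replicates, from separate biosamples of strain OP357, which carries unc-119(tm4063) III and the integrated transgene wgIs357. The transgene gives NHR-84 fused at its C-terminus to GFP and FLAG, and the peaks are those of this tagged copy in 1 transgenic line. Chromatin came from whole L1 larvae of mixed sex and unrecorded age, so no cell type can be assigned to a region. No second condition was analysed here, nor was the control alignment that the file records name beside the lists. Read counts are not part of the lists, so the depth is unknown and a signal carries no counting error. Each list has its own signal scale, so signals were compared only within a list. Coordinates are on build ce11 with Ensembl genes.

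The gene eef-1A.2 (WBGene00001169) lies on chromosome X at 7823654 to 7825769 on the plus strand, with 3 annotated transcripts that share 1 start. Coding exons were counted in the first of these transcripts, which has 3. The gene eef-1A.1 (WBGene00001168) lies on chromosome III at 6970026 to 6971712 on the minus strand, with 1 transcript and 4 coding exons. Both encode a protein of 463 residues, and the translated sequences were identical at all 463 positions. The coding sequences, each 1389 bases without the stop codon, matched at 1305 positions (94.0%) and differed at 84, and their longest shared run was 53 bases. By the coding sequence compared for each gene, they therefore encode 1 protein from loci on different chromosomes.

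The sequences around the promoter summits are shown because they carry the strongest regions of both genes. The sequence past the 3' end of eef-1A.2 is shown because it holds the second strongest pooled region there. Each is read from the RefSeq WBcel235 genome, the same assembly as ce11, 5' to 3' on the strand of the gene. The promoter windows reach 100 bp to either side of the IDR summit and hold no annotated exon of either member. Capitals mark 4 of the short words searched on either strand, which are named with their positions further on.
eef-1A.2 promoter, plus strand of chrX:7823220-7823420: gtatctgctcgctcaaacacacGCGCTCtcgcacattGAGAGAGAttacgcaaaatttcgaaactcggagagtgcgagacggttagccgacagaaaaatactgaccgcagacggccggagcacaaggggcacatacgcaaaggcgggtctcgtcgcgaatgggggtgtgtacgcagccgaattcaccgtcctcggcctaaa
eef-1A.1 promoter, minus strand of chrIII:6971972-6972172: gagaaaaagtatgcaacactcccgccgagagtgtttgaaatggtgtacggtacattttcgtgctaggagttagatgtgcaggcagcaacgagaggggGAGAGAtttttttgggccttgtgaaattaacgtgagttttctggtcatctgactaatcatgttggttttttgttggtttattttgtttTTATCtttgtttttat
past the eef-1A.2 3' end, plus strand of chrX:7825770-7825850: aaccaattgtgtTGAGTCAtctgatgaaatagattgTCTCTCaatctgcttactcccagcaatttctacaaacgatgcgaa

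The promoter windows were not alike in sequence, although the proteins were. In a global alignment 79 of their positions matched, 38.7% of the aligned length, and the longest run shared on either strand was 8 bases. In the 200 bp past the gene ends, 85 positions matched (40.1%), and the longest shared run was 7 bases. All 166 words of 36 bases in each promoter window occurred once in the genome, and so did the 166 in the window around the region past the 3' end of eef-1A.2. In the coding sequences, 94 words occurred more than once, of 1290 from eef-1A.2 and 1257 from eef-1A.1 that are contiguous in the genome. In the windows around the gene-body regions, all 166 words at eef-1A.2 and 160 of 166 at eef-1A.1 occurred once. How long the reads were and how those with several matches were placed is not stated, so the effect on the coding regions was not tested.

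The eef-1A.2 promoter held the stronger peak in the pooled list. Its summit lay at 7823320, 334 bp upstream of the annotated transcription start site (TSS). The signal, the value the peak caller gave each region on a scale that is not stated, was 88.0 in the pooled list (rank 20), 34.4 in replicate 1 (rank 51) and 51.4 in replicate 2 (rank 12). These are 4.32, 2.95 and 4.45 times the median signal of each list. The q-value deposited with the region, by a method that is not stated, was 0.0182 in the pooled list, 0.208 in replicate 1 and 0.0233 in replicate 2. Among the pooled regions near eef-1A.2, q-values did not fall steadily with signal, with 0.782 at a signal of 17.1 and 0.861 at 26.2. The summit of replicate 1 fell on the same base as the pooled one, and that of replicate 2 lay 36 bp away. The promoter of eef-1A.2 was thus among the 106 highest regions of both replicates.

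The eef-1A.1 promoter peak had its summit at 6972072, 360 bp upstream of the TSS. Its signal was 65.1 in the pooled list (rank 43), 36.7 in replicate 1 (rank 36) and 24.1 in replicate 2 (rank 322), or 3.19, 3.15 and 2.09 times the list medians. The deposited q-values were 0.106, 0.155 and 0.449 in the same order. Its summits were 1 bp from the pooled one in replicate 1 and 15 bp from it in replicate 2. This promoter was high in replicate 1 and, in replicate 2, fell outside the 106 highest regions.

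The order of the genes differed between the replicates. The signal of eef-1A.2 over that of eef-1A.1 was 1.35 in the pooled list and 2.13 in replicate 2, but 0.936 in replicate 1, where eef-1A.1 was slightly higher. With a ratio on either side of 1 in the 2 replicates, the pooled difference between the genes does not exceed the spread between replicates. The IDR list gives the pooled signals again and adds no measurement of its own.

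Between the replicates, the ranks of eef-1A.2 differed by a factor of 4.25 and those of eef-1A.1 by a factor of 8.94. The median factor was 4.40 over the 94 IDR peaks found within 100 bp in both replicates. A larger factor than that of eef-1A.2 was seen at 47 of these peaks, and than that of eef-1A.1 at 34. Disagreement of this size was thus common among the IDR peaks and not particular to the elongation factor genes.

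**Figure D1:**
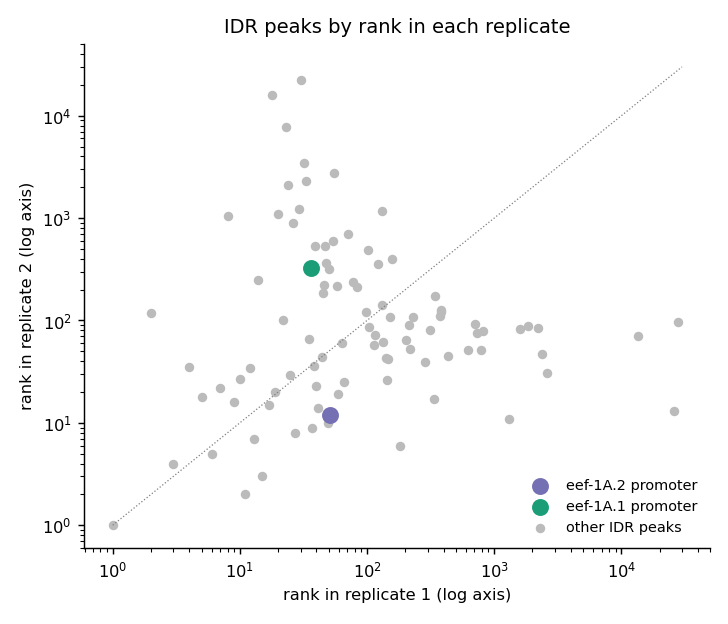
IDR peaks found in both replicates, with the rank by signal in replicate 1 on the x axis and in replicate 2 on the y axis (log axes, 1 is the highest), and equal ranks on the dotted line. The eef-1A.2 promoter lies at ranks 51 and 12, below the line, and the eef-1A.1 promoter at ranks 36 and 322, above it.

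The IDR peaks whose ranks in the replicates were most like those of eef-1A.2 were nearest to the coding starts of ZK1248.17 (ranks 49 and 10 in replicates 1 and 2), nlp-40, a neuropeptide gene (41 and 14), and rpl-15, for a protein of the large ribosomal subunit (37 and 9). Those most like eef-1A.1 were nearest to M01H9.3 (48 and 367), txdc-12.1 (50 and 316) and fbxb-58 (46 and 224). Likeness was the distance between log10 ranks over 2 replicates, from 0.08 to 0.19 for these 6 peaks. Of the 6, the peak of rpl-15 lay 366 bp from the coding start, and the others lay between 632 and 1950 bp from theirs.

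Within the IDR list the lowest signal was 52.0 and the median 60.1. The eef-1A.2 peak had 1.69 times the lowest signal and ranked 7 of the 22 peaks on X. It was the highest of the 4 IDR peaks on X whose summit lay in a promoter window, which ran 500 bp upstream and 100 bp downstream of each coding TSS. The eef-1A.1 peak had 1.25 times the lowest signal, ranked 9 of 19 on chromosome III and ranked 6 of the 12 at coding promoters there. Among all 56 IDR peaks at coding promoters the genes ranked 9 and 20.

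Both summits lay upstream of the middle range of positions, when each peak was taken to the gene's own TSS. Over the 72 coding genes whose promoter window held an IDR peak, the median position was -221 bp, with quartiles of -319 and -167 bp. The position was -334 bp at eef-1A.2 and -360 bp at eef-1A.1, and 17 genes lay farther upstream than eef-1A.2 and 15 farther than eef-1A.1. The 12 ribosomal protein genes among the 72 had a median of -288 bp, and 5 of them lay farther upstream than eef-1A.2 and 4 farther than eef-1A.1. Some peaks lie in the windows of several genes. With each of the 56 peaks taken to its nearest coding TSS, the median was -196 bp, with quartiles of -286 and -130.5 bp. By that measure eef-1A.2 stayed at -334 bp, while the eef-1A.1 peak lay 181 bp upstream of rfc-4, inside the middle range. Many annotated 5' ends in C. elegans are trans-splice sites, so the distance to the true start may differ.

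**Figure D2:**
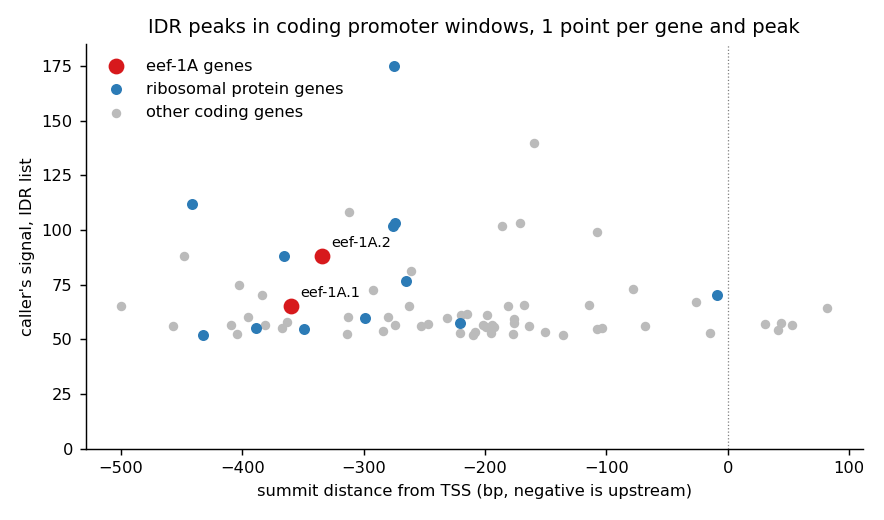
Summit position relative to the TSS in bp (x axis, negative is upstream) against the caller's signal in the IDR list (y axis), with 1 point for each coding gene whose promoter window holds an IDR peak. The eef-1A.2 and eef-1A.1 points at -334 and -360 bp, with signals of 88.0 and 65.1, lie left of the median of -221 bp over the 72 genes.

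The surroundings of the promoter peaks differed. No other coding gene shared the eef-1A.2 peak, and the nearest annotated feature was R03G5.8, a noncoding RNA gene on the opposite strand at 7823385 to 7823525, whose end lay 65 bp from the summit. The eef-1A.1 peak stood between divergent genes. Its neighbour rfc-4, for a subunit of the replication factor C clamp loader, starts 181 bp from the summit on the other side, so the peak was nearer to rfc-4 than to eef-1A.1. The 540 bases between these 5' ends also hold the microRNA gene cel-mir-5549 at 6971976 to 6972085, and the pooled summit lay inside it. Which of these genes the region belongs to cannot be told apart from position alone.

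GC content differed between the promoter windows. It was 55.7% at eef-1A.2 and 39.3% at eef-1A.1, against 41.8% ± 5.72 (SD, 106 IDR peaks) and 36.6% ± 6.46 (SD, 30000 pooled regions) in windows of the same length. Of the 106 IDR windows, 3 were at or above the eef-1A.2 value, itself included, and 72 at or above that of eef-1A.1. The eef-1A.2 window was thus near the top of the IDR peaks and the eef-1A.1 window close to their middle.

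Of 9 short words searched on both strands, GAGAGA was found in both promoter windows. In eef-1A.1 it began 3 bases before the summit, counted along the gene. In eef-1A.2 it occurred at 2 overlapping positions that began 63 and 61 bases before the summit. GAGAGA was present in 28.3% of the IDR windows and 12.2% of all pooled windows. GAGCGC was found at eef-1A.2 only, 78 bases before the summit on the opposite strand, and in 17.9% of IDR windows and 2.94% of pooled windows. GATAA was found at eef-1A.1 only, in a set where 40.6% of IDR and 38.3% of pooled windows hold it. AGGTCA, the core half-site of many nuclear receptors, was in neither promoter window. It was present in 7.55% of IDR windows and 5.21% of pooled windows. The other words searched were a variant half-site (AGTTCA), a bZIP site (TGACTCA), an E-box (CACGTG), a forkhead site (GTAAACA) and a GC-rich word (CGCGCA), and none of them was in either promoter window. They were present in 9.43%, 0.943%, 7.55%, 1.89% and 20.8% of the IDR windows, in that order, and in 13.5%, 2.13%, 3.81%, 2.39% and 3.06% of all pooled windows. A match describes the letters in the window and is not evidence of binding.

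Inside both genes the regions were weak. At eef-1A.2 the pooled gene-body region, in the coding part of the last coding exon with its summit at 7825232, had a signal of 21.4 (rank 12284), and the promoter signal was 4.11 times as high. Replicate 2 had a region 19 bp away with a signal of 11.7 (rank 14258), a promoter ratio of 4.38. Replicate 1 listed none in the gene body, where its list ends at a signal of 9.08. At eef-1A.1 the gene-body signals were 17.1 in the pooled list, 10.1 in replicate 1 and 9.61 in replicate 2 (ranks 26129, 22783 and 25431), and the promoter was 3.80, 3.62 and 2.51 times as high. These 3 summits, at 6971162, 6971059 and 6971335, all fell in coding exons, but the replicates' summits lay 103 and 173 bp from the pooled one, so they did not match within 100 bp. In each list that held a gene-body region, the promoter region was thus the higher one at both genes. Both genes were picked for a promoter peak, so this order is a description.

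**Figure D3:**
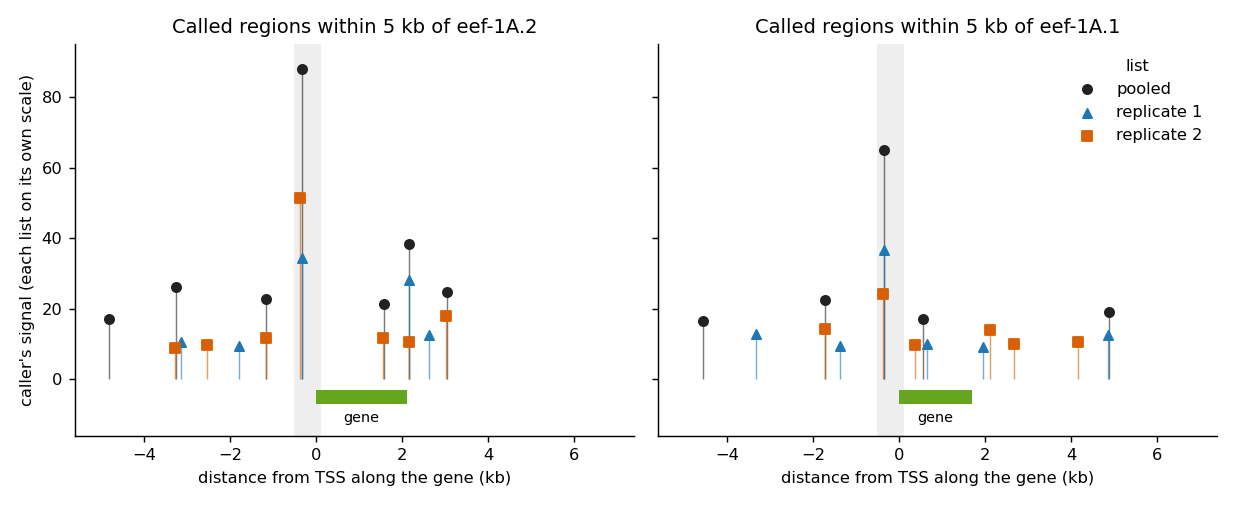
Called regions within 5 kb of eef-1A.2 and eef-1A.1, by distance of the summit from the TSS along the gene in kb (x axis) and the caller's signal (y axis, each list on its own scale), with the promoter window in grey and the gene in green. The promoter region is the highest at both genes in all 3 lists, and a region past the 3' end of eef-1A.2 reaches 38.2 in the pooled list.

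A region just past the 3' end was seen at eef-1A.2. Its pooled summit at 7825810 lay 41 bp beyond the annotated end of the gene, inside the noncoding RNA gene C54D2.14 (7825780 to 7826072, plus strand) and near its start. Whether the region belongs to C54D2.14 or to eef-1A.2 cannot be told from position alone. The signal was 38.2 in the pooled list (rank 517), 28.0 in replicate 1 (rank 124) and 10.7 in replicate 2 (rank 18871). Summits lay 15 bp away in replicate 1 and on the same base in replicate 2. The deposited q-values of this region were 0.797, 0.466 and 0.704 in the same order of lists. In the pooled list and replicate 2 it was not set apart by q from other regions near eef-1A.2. In replicate 1 its q lay between that of the promoter (0.208) and those of the other regions within 5 kb (0.678 to 0.749). The sequence printed above for this region holds TGACTCA on the minus strand, 28 bases before the summit, and GAGAGA on the minus strand, 4 bases before it. In replicate 1 the promoter signal was 1.23 times as high as this region. In replicate 2 the region was near the median of its list, 11.5, so its pooled rank rests on replicate 1, and it was not among the IDR peaks. At eef-1A.1 the nearest pooled region past the 3' end lay 3187 bp away, in an intron of panl-2, with a signal of 19.1. The single replicates listed nearer ones, in a coding exon of F31E3.12. Replicate 1 had one 275 bp past the gene end (signal 9.22, rank 28915) and replicate 2 one 417 bp past it (14.0, rank 7116). In replicate 2 this was higher than the region past the eef-1A.2 end.

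Genes with one of the 1000 highest pooled regions at both ends were also counted. Of 401 coding genes with one of the 1000 highest pooled regions in the promoter window, 10 also had one within 500 bp past the gene end. These included eef-1A.2 and not eef-1A.1. The place of eef-1A.2 among them rests on replicate 1, where its region past the end ranked 124, against 18871 in replicate 2. An IDR peak at the promoter was found at 5 of the 10, against 72 of the 401. Besides eef-1A.2 the 5 were hsp-90, T28B8.1, T28F4.5 and icd-2 (named after their values were seen). The share of all coding genes with such a region past the end was not counted. Whether 10 of 401 is few or many therefore cannot be told, and these counts are a description.

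**Figure D4:**
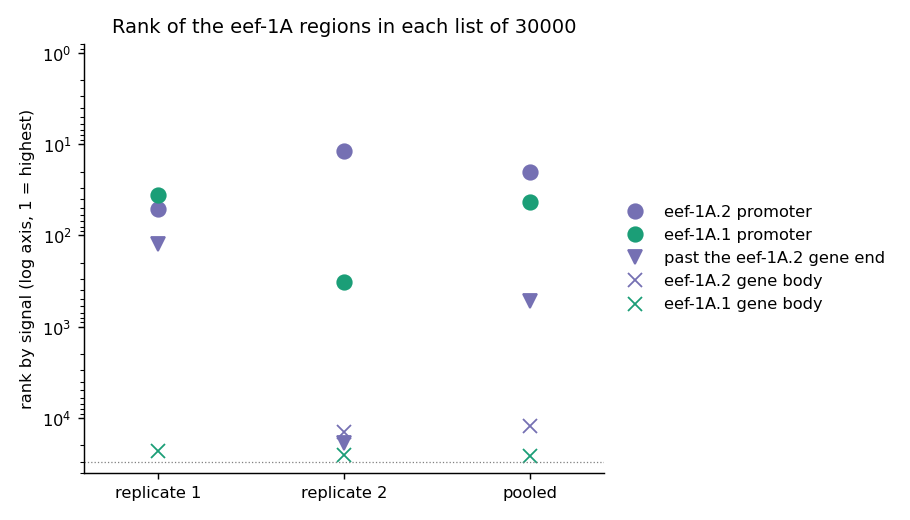
Rank by signal (y axis, log scale, 1 is the highest) of the eef-1A regions in the lists of replicate 1, replicate 2 and the pooled replicates (x axis), with the end of each list, 30000, dotted. The promoter regions rank between 12 and 322, while the region past the eef-1A.2 end ranks 124 in replicate 1 and 18871 in replicate 2.

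The other regions within 5 kb were low and mostly seen in 1 replicate. At eef-1A.2, the upstream regions had pooled signals of 22.7, 26.2 and 17.1 at 1158, 3251 and 4803 bp from the TSS, of which the farther 2 lay in sek-1, a kinase gene of the p38 immune pathway. A further downstream region, 923 bp past the gene end, had a signal of 24.7 and ranked 2011 in replicate 2. At eef-1A.1, the upstream regions had signals of 22.5 in a coding exon of rfc-4 and 16.6 in the 3' UTR of F31E3.2. Of the 7 pooled regions at eef-1A.2, 2 matched a region in both replicates, 4 only in replicate 2 and 1 in neither. Of the 5 at eef-1A.1, 1 matched in both, 1 only in each replicate and 2 in neither. Within 100 bp, both replicates thus shared the promoter regions and the region past the eef-1A.2 end. Beyond that distance by little were the eef-1A.2 region 3251 bp upstream, 110 bp from a summit of replicate 1 and 19 bp from one of replicate 2, and the eef-1A.1 gene-body region, 103 and 173 bp away.

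Coding genes of 1500 to 2500 bp, the size class of both members, had a median of 3 pooled regions by the same rule (quartiles 2 and 5, 5111 genes). The 7 regions of eef-1A.2 were above the upper quartile and the 5 of eef-1A.1 were on it. Each count includes the promoter peak for which the gene was picked, while the 5111 genes were not picked for a region. Leaving that peak out would place eef-1A.1 below the upper quartile and eef-1A.2 still above it, so the comparison is a description. At the edge of the rule, the farthest pooled region inside was 4803 bp from eef-1A.2 (signal 17.1) and 4556 bp from eef-1A.1 (16.6). The nearest ones outside lay 8152 bp (16.3) and 5395 bp (25.1) away.

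Other genes of translation elongation and termination were compared by the highest pooled region in their promoter window. An IDR peak there was rare across the genome, at 72 of 5005 coding genes with any pooled region in the window (1.44%). Both eef-1A genes are among the 72 by the way they were picked, so nothing is read from their count. Of 17 listed genes, 16 were matched by name. Leaving out eef-1A.2 and eef-1A.1, 8 of the other 14 had a pooled region, 1 had an IDR peak, and 5 had one of the 1000 highest regions. Over all 19973 coding genes, 5005 had a pooled region, 72 an IDR peak and 401 one of the 1000 highest. The median of the 8 was 37.9, against 21.4 over all coding genes with a region. The list is short and was made with earlier results of these data known, so these counts are a description.

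The IDR peak outside the pair was at erfa-3, the gene for release factor eRF3, a GTPase related in sequence to elongation factor 1A. Its summit was 314 bp upstream of the TSS, with a pooled signal of 52.4 (rank 103) and ranks of 342 in replicate 1 and 174 in replicate 2. Just below the IDR peaks were eef-2, whose product moves the ribosome along the mRNA (signal 50.1, rank 123), and eef-1G, for the gamma subunit of the exchange factor that reloads elongation factor 1A with GTP (48.8, rank 136). The ranks of eef-1G were 5117 in replicate 1 and 123 in replicate 2, so its pooled rank rests on replicate 2. iff-2, one of the eIF5A genes (38.8, rank 468), and eef-1B.1, for another exchange factor subunit (37.0, rank 635), were also among the 1000 highest. iff-2 ranked 663 in replicate 1 and 11949 in replicate 2, so its pooled rank rests on replicate 1. For eef-1B.1 no region was listed in the window in replicate 2.

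The remaining members of that list were lower or had no region. erfa-1, the gene for release factor eRF1, had a signal of 24.7, the other eIF5A gene iff-1 had 22.1, and the mitochondrial elongation factor gene gfm-1 had 19.4. No pooled region lay in the windows of eef-1B.2, efk-1, hbs-1, pelo-1, tsfm-1 and tufm-1. Among these, hbs-1 encodes another relative of elongation factor 1A, and tufm-1 the mitochondrial counterpart. The high promoter signal of eef-1A.2 and eef-1A.1 follows from how they were picked. Among the other listed factors, several cytosolic ones had a high pooled region, some of them resting on a single replicate. Other cytosolic factors and relatives had no pooled region.

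Initiation factor genes were close to the coding genes as a whole. Of 31 genes named eif-, ife- or ifg-, 11 had a pooled region in the window, with a median of 21.7, against 5005 of 19973 and 21.4 over all coding genes. An IDR peak was found at 0 of the 11, a number that a share of 1.44% also gives for a list this short. The highest was eif-3.B, for a subunit of the eIF3 complex, with a signal of 47.8 and rank 152. Its ranks were 11391 in replicate 1 and 37 in replicate 2, so its pooled rank rests on replicate 2. Of 81 ribosomal protein genes, 43 had a pooled region (median 30.7) and 12 had an IDR peak, with pooled signals between 52.2 and 175 and a median of 73.6. The eef-1A.2 signal of 88.0 was above this median and the eef-1A.1 signal of 65.1 below it, so both lay inside the range of the ribosomal protein peaks.

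**Figure D5:**
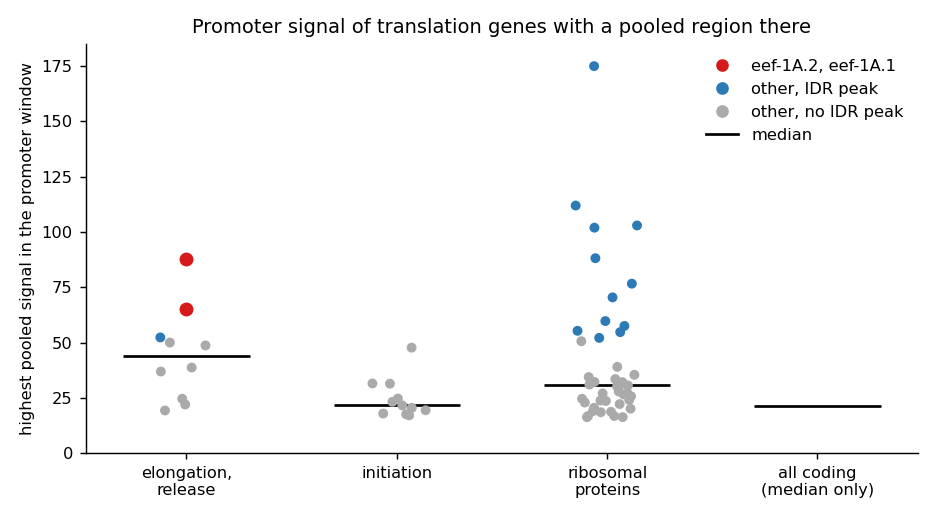
Highest pooled signal in the promoter window (y axis) of each translation gene that had a region there, by gene list (x axis), with the members in red, other genes with an IDR peak in blue and black lines at the medians. The eef-1A.2 and eef-1A.1 points at 88.0 and 65.1 are the highest of the elongation and release factors and lie within the range of the ribosomal protein genes.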

How the data were processed

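ChIP-seq of tagged NHR-84 from L1 larvae was analysed in 2 biological replicates of 1 group. The authors deposited narrowPeak lists on ce10 and ce11, made from each replicate alone, from both pooled and after IDR, with a control alignment as a parent, per the deposited file records. Signal values are those the authors deposited, and the deposited −log10 q-value was converted to q. The sources used here do not give the aligner, the caller or its settings, and depth is unknown. Each replicate and pooled list ends at 30000 regions, so weak ones include background.

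Regions were ranked by signal within a list. Genes came from Ensembl and sequence from RefSeq WBcel235, the assembly of ce11. Coordinates on ce10 were not converted: regions were matched by chromosome and nearest signal within 0.1%. Summits within 100 bp were counted as matched. Identity came from a global alignment in Biopython 1.88. Tables were handled in Python 3.11.15 with numpy 2.4.6 and pandas 2.3.3, and plots drawn in matplotlib 3.10.9. The annotation code was tested on simulated data.

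No test was run: members, lists and words were chosen with earlier results of these data known. Named genes were the members, list genes with an IDR peak or among the 1000 highest regions, neighbours within 5 kb and the 3 most alike IDR peaks per member. Other genes are named to account for a whole list. The 36-base words, the GC content, the regions per gene by size, the elongation list without the members, distances to each gene's own TSS and the genes with regions at both ends were added after seeing the data. Alternatives were other windows, flanks, match distances, stricter lists, ce10 and each replicate alone.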

Additional observations from a re-analysis of the deposited data

How the results depend on the processing

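A rank or ratio was taken as moved when it shifted by at least 1 SD of the replicates, and a count when it shifted by over 1.5 times. By these rules, of 27 alternatives over 7 values, 19 did not move, 7 moved and 1 reversed. Some of the 19 could not have moved, such as the most upstream TSS where each gene has 1, or a wider window. The ratio of 2.13 without replicate 1 counted as not moved, because the SD comes from the same 2 replicates. The tally is therefore not a measure of robustness. The ratio of eef-1A.2 over eef-1A.1 promoter signal was 1.35, and 0.936 to 2.13 with a replicate left out, so its direction turned without replicate 2. The rank of the eef-1A.2 promoter was 12 to 51 and that of eef-1A.1 was 36 to 322 with a replicate left out; on ce10 the ranks of 20 and 43 were unchanged. Without replicate 1, only 1 member, eef-1A.2, had its promoter among the 106 highest regions, against 2 without replicate 2. The window from 250 bp upstream held 0 IDR peaks, since both summits lie farther upstream. For eef-1A.1 the pooled regions numbered 3 with a flank of 2 kb, 8 with 10 kb and 1 among the 10000 highest regions. The causes of the differences between replicates were not tested. No paired analysis was possible because the series has a single group.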
